A study of Mus musculus with 2 samples.

Results

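The 39 genes described here encode proteins that carry a cell through mitosis and cytokinesis. They were taken as a fixed list of symbols, and all 39 were found among the 32285 genes of the feature table. Their transcripts were counted in microglia, the resident macrophages of the brain, in droplets, cell by cell, with 10x Genomics RNA sequencing. The mice were 12 weeks old and heterozygous for Cx3cr1CreERT2(Litt), an allele in which Cx3cr1, whose product is the receptor for fractalkine on microglia, drives a Cre recombinase that tamoxifen switches on. They had been given either oil, the vehicle, or tamoxifen (TAM) for 4 weeks, so that both groups carried the Cre allele; mice without Cre were not analysed here. Cells from whole brains that were CD11b+, CD45+, Ly6G- and CD206- were sorted, and antibodies carrying a DNA barcode (hashtags) marked their sample of origin before the cells were pooled. Each treatment had 5 hashtags, Oil1 to Oil5 and TAM1 to TAM5. Whether a hashtag stands for 1 mouse is not stated in the labels, so p-values describe variation among hashtags and part of it may be technical.

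After assignment and filtering, 7523 cells lay in 5 clusters named microglia-like, in which the median microglial marker was detected in 98.4 to 100% of cells. They gave 585 to 900 cells and 2955943 to 4789240 UMIs (distinct tagged molecules) per hashtag, with a median of 4896 to 5096 UMIs per cell. Xist and Y-linked transcripts marked Oil1, Oil2, TAM1 and TAM2 as male and the other 6 hashtags as female, so each treatment held both sexes. Immediate early genes, which respond quickly to cell stimulation, were lower in TAM hashtags but also fell along the hashtag order within oil. Their mean log2 CPM was 6.49, 5.91, 5.68, 5.17 and 4.66 in Oil1 to Oil5. In TAM1 to TAM5 it was 4.64, 4.67, 4.01, 3.70 and 3.76, so Oil5 and TAM1 were nearly equal. The summed CPM of the microglial markers was 32368 to 35124 in oil and 31523 to 32352 in TAM hashtags, and that of the monocyte markers 7.30 to 12.1 and 5.07 to 15.03; the part of these measures in the results was not tested. CPM here means UMIs per 1000000 UMIs of the summed microglia-like cells of a hashtag. A total of 17.4% of barcodes carried several hashtags and were left out, and about 193 doublets of 1 hashtag are expected among the singlets kept.

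At the entry to mitosis Cdk1 and its cyclins phosphorylate many proteins, condensins compact the chromosomes and kinetochores attach them to spindle microtubules. The checkpoint kinases hold the cell until all chromosomes are attached; the central spindle and the actin ring then divide the cytoplasm. Most of these genes are transcribed late in the cell cycle and are silent in resting cells. Microglia renew slowly by division in the adult brain, so few cells of a sample are in this phase at any time. Promoters of such genes often carry a cell cycle homology region (CHR), bound by the repressive DREAM complex in resting cells and by B-Myb and FoxM1 complexes in dividing ones, and CCAAT boxes, bound by NF-Y.

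The promoters of the genes are shown because 17 members rose together in the fits over hashtags. RefSeq windows of 300 bases (250 before and 50 from the start site on; GRCm38.p6, the mm10 assembly) were given for 34 of the 39 members. Windows of 5 members with the smallest p-values among those holding a CHR match are printed 5′ to 3′ in the direction of the gene, with CHR letters (TTTGAA or TTCGAA, on either strand) and CCAAT boxes (ATTGG on the other strand) in capitals.
Kif23 (chr9:61946750-61947049, minus strand): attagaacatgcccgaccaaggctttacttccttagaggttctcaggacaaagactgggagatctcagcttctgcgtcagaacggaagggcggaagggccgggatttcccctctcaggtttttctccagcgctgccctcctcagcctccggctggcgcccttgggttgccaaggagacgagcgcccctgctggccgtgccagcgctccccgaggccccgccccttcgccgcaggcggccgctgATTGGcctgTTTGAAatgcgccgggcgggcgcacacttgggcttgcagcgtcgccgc
Spc25 (chr2:69206164-69206463, minus strand): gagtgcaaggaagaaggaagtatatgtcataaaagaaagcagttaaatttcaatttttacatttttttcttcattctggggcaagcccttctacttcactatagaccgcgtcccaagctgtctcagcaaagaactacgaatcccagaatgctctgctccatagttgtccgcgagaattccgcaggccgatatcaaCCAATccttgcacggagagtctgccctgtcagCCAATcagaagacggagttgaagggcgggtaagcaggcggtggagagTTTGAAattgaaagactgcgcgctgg
Cdk1 (chr10:69352863-69353162, minus strand): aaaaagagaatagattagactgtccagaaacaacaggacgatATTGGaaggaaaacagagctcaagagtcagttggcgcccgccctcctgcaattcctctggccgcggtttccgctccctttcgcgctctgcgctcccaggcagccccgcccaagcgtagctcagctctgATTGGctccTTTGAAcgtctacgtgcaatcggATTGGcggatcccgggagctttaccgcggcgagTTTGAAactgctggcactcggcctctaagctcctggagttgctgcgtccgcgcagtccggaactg
Top2a (chr11:99024140-99024439, minus strand): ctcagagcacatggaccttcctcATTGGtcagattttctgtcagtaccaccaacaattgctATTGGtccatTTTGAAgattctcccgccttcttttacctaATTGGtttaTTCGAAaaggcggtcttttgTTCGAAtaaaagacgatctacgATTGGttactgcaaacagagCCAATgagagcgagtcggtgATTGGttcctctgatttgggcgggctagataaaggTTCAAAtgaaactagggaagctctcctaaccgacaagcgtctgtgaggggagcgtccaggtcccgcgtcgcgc
Prc1 (chr7:80294201-80294500, plus strand): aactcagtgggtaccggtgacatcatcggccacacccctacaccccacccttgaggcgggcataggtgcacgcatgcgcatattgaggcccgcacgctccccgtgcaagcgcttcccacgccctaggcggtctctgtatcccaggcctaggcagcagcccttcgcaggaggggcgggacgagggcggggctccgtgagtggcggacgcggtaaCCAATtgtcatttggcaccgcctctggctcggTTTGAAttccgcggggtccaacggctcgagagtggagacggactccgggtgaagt

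In Kif23 the TTTGAA match began 2 bases into the transcript, counting the start site as 0, and the ATTGG match 7 bases before it. Prc1 had TTTGAA 5 bases and CCAAT 37 bases before the start. In Cdk1 matches to TTTGAA began 71 and 15 bases before the start, and ATTGG lay 208, 80 and 48 bases before it. Top2a held 4 CHR matches, the nearest 23 bases before the start and read as TTCAAA, and 6 CCAAT boxes. The match of Spc25 began 24 bases after the start, with CCAAT 55 and 23 bases before it.

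A CHR match was found in 28 of the 34 members (82.4%) and in 21.7% of the 27025 genes with a window. Within 50 bases of the start it was found in 27 members (79.4%) and in 6.12% of all genes. CCAAT was found in 25 members (73.5%) against 41.1% of all genes, and both motifs in 23 members (67.6%) against 8.61%. In the wider list of 70 other mitosis and cytokinesis genes, 35 of 56 with a window (62.5%) held a CHR match, and in a list of 40 DNA replication genes 6 of 33 (18.2%). Birc5, Ccnb1, Cenpe, Cit, Nuf2 and Nusap1 had no CHR match in the window. These are matches of letters and not measured sites of binding.

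**Figure D1:**
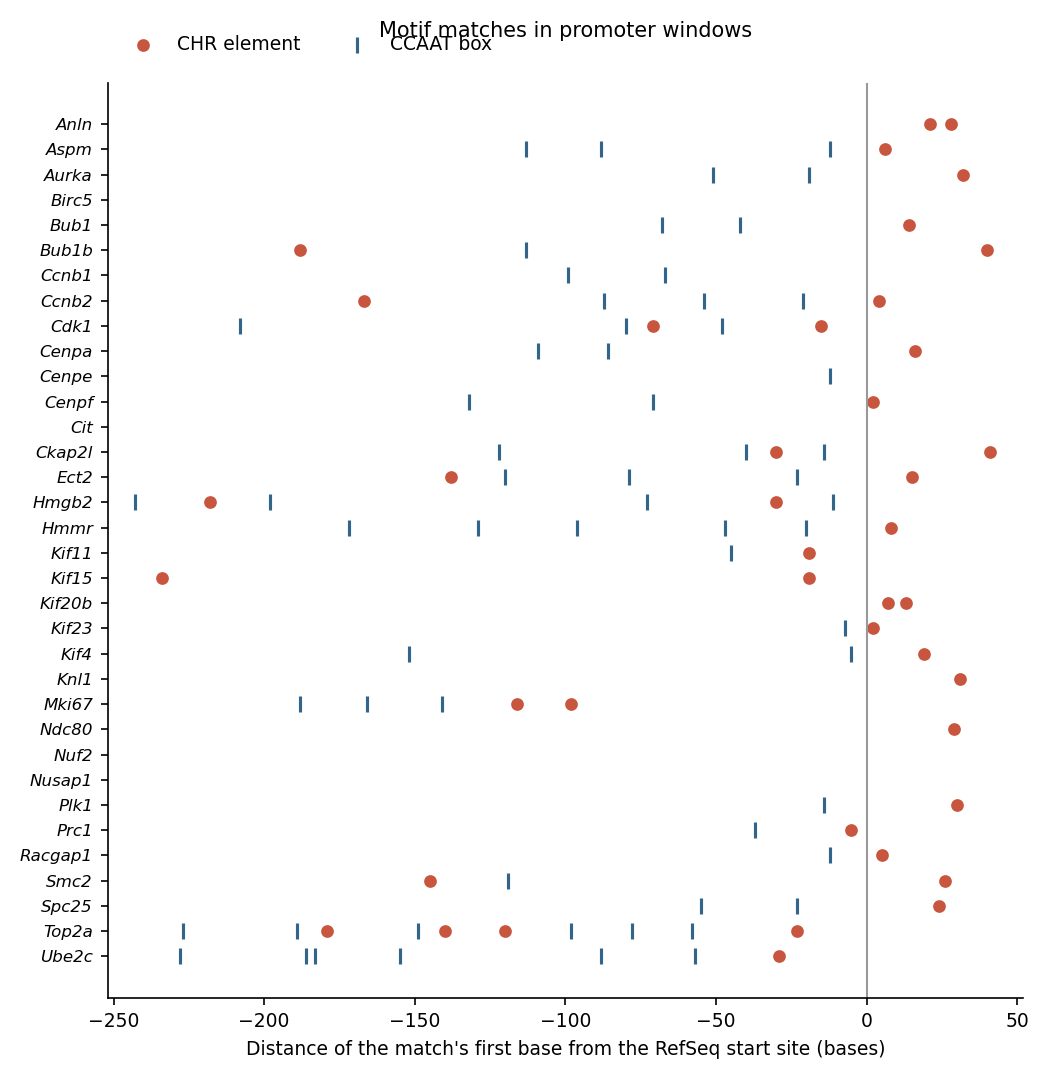
Positions of CHR and CCAAT matches in the promoter windows of 34 members, from 250 bases before to 50 after the RefSeq start site (grey line); circles are CHR matches, bars CCAAT boxes on either strand. The first window is drawn for members with more than 1, and CHR matches lie within 50 bases of the start in 27 of the 34.

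Transcripts of the genes were concentrated in very few cells. Dividing cells were set as those with a summed count of at least 3 UMIs of Mki67, whose product coats mitotic chromosomes, and Top2a, the topoisomerase that untangles them. This gave 49 of 7523 cells (0.651%). In oil hashtags they numbered 1, 2, 1, 1 and 3 in Oil1 to Oil5, which was 0.147, 0.322, 0.114, 0.133 and 0.375% of microglia-like cells. In TAM hashtags they numbered 2, 5, 12, 13 and 9 in TAM1 to TAM5, or 0.243, 0.855, 1.33, 1.73 and 1.23%. TAM2 to TAM5 were above every oil hashtag, while TAM1 lay among the oil hashtags. The mean share was 0.218 ± 0.121% (SD, n = 5) in oil and 1.08 ± 0.561% (SD, n = 5) in TAM hashtags, and no test was made because members define the cells. Pooled, 8 of 3732 oil cells (0.214%, 95% exact binomial interval 0.0926 to 0.422) and 41 of 3791 TAM cells (1.08%, 0.777 to 1.46) were dividing; these intervals cover counting error only. By sex the TAM share was 34 of 2382 female cells (1.43%) and 7 of 1409 male cells (0.497%), and the oil share 5 of 2431 (0.206%) and 3 of 1301 (0.231%).

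The cells set by the rule were described by the other 37 members, which it did not use. The list was chosen with earlier results of these data known, so they are no separate check of the rule. A dividing cell expressed a median of 25 of them (range 4 to 37), and they made up 118.5 of every 10000 UMIs in dividing cells against 1.47 in all other microglia-like cells. Of the other cells, 54.4% had no UMI of any of the 37. Dividing cells were deeper, with a median of 8376 UMIs against 4994. With each cell thinned to 3000 UMIs, and 144 oil and 163 TAM cells left out as shallower, 7 oil and 28 TAM cells met the rule. Near its edge, the 12 cells with a summed count of 2 had 27.3 UMIs of the other 37 members per 10000, the 3 cells with a count of 3 had 85.1 and the 6 cells with a count of 4 had 20.4. Those 6 cells had 45.1 UMIs of DNA replication genes per 10000, against 37.7 in all dividing cells. Outside the rule, 12 cells had 10 or more UMIs of the other members, 10 of them in TAM hashtags. One cluster of 56 cells, led by Top2a and Mki67, held 48 of the 49 dividing cells, but the clusters were drawn from the same counts.

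Dividing cells held 1.063% of all UMIs and 46.4% (4896 of 10559) of the UMIs of the other 37 members. The share was 18.9, 21.96, 4.17, 5.18 and 31.0% in Oil1 to Oil5 and 29.8, 48.9, 63.3, 73.5 and 58.2% in TAM1 to TAM5. The treatments overlapped at a single point, where Oil5 stood above TAM1. Outside dividing cells the 37 members together were at 1.45 UMIs per 10000 in oil and 1.49 in TAM cells. Of that sum Hmgb2 alone gave 0.684 in oil and 0.528 in TAM cells, and the other 36 members 0.767 and 0.966.

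**Figure D2:**
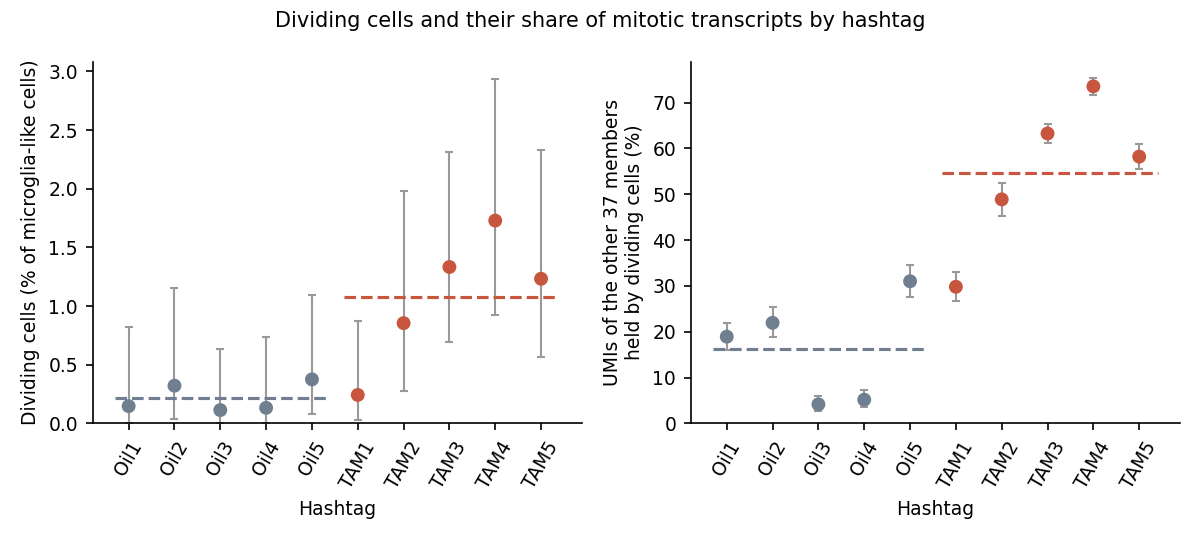
Left, dividing cells as a percentage of the microglia-like cells of each hashtag; right, percentage of the UMIs of the other 37 members held by them. Bars are 95% exact binomial intervals for counting error and dashed lines the mean of 5 hashtags; TAM2 to TAM5 lie above every oil hashtag in both.

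The content of the 8 oil and 41 TAM dividing cells is given as a description, without a test. The other 37 members were at 78.0 UMIs per 10000 in oil and 127.0 in TAM dividing cells, whereas 40 DNA replication genes were at 36.5 and 38.0. At least 20 of the 37 were detected in 3 of 8 oil and 27 of 41 TAM dividing cells. In the hashtags with 3 or more dividing cells the level of the 37 was 86.4 in Oil5, 103.1 in TAM2, 135.7 in TAM3, 135.2 in TAM4 and 111.9 in TAM5. In the other hashtags, with fewer dividing cells, it was 161.8 in Oil1, 65.3 in Oil2, 30.8 in Oil3, 45.8 in Oil4 and 128.2 in TAM1. The single dividing cell of Oil1 thus stood above every TAM hashtag. Ccnb2, a B-type cyclin of mitotic entry, and Plk1, the kinase of spindle assembly and cytokinesis, gave 0 UMIs in the 8 oil cells, which allows up to 0.420 per 10000, and stood at 1.87 and 1.20 per 10000 in TAM dividing cells. Of the 37 members 33 were higher in TAM and 4 in oil dividing cells, and the same count over all genes was not made. The 4 were Cenpe (4.61 in oil and 3.84 in TAM), Kif4 (3.08 and 2.61), Kif15 (3.78 and 3.72) and Esco2 (3.22 and 3.19). Mki67, which set the rule, was at 13.8 and 13.5 per 10000.

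The members fell along a gradient in how far they were confined to dividing cells. Of the 37 members besides Top2a (96.8%) and Mki67 (94.4%), which set the rule, 8 had at least 90% of their UMIs there, 30 at least 50%, and the median was 70.7%. These shares pool both treatments, and TAM hashtags held 41 of the 49 dividing cells: the median of the 37 was 38.5% in oil and 80.2% in TAM hashtags. The highest pooled shares were those of Kif4 (96.5%), a chromosome-bound kinesin, Esco2 (95.7%), the acetyltransferase that locks cohesin on replicated DNA, Kif23 (95.5%), the kinesin of the central spindle, and Ube2c (94.4%), the ubiquitin-conjugating enzyme that marks cyclins for destruction. At the other end were the DNA-bending protein gene Hmgb2 (19.6%), the condensin subunits Smc2 (20.1%) and Smc4 (24.6%), Kif20b (32.7%), a kinesin of late cytokinesis, Cenpa (38.0%), the histone variant of centromeres, Kif15 (45.0%), a spindle kinesin, and Ccnb2 (48.5%). Cdk1 had 100 of its 187 UMIs in dividing cells (53.5%, 95% exact binomial interval 46.1 to 60.8). By treatment its share was 19.5% of 41 UMIs in oil and 63.0% of 146 in TAM hashtags. Kif4 was at 88.0% in oil and 98.9% in TAM hashtags, Cenpa at 10.0 and 53.7%, and Ccnb2 at 0 of 23 UMIs and 58.7% of 109.

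By role, the median pooled share was 86.9% for the 8 spindle genes, 85.7% for the 5 cyclin and Cdk1 genes, 74.5% for the 6 mitotic kinase and checkpoint genes, 62.7% for the 7 centromere and kinetochore genes, 57.3% for the 7 cytokinesis genes and 22.4% for the 4 chromosome structure genes that did not set the rule. In the same order the medians were 54.8, 50, 29.8, 35.6, 38.5 and 6.30% in oil hashtags and 91.7, 90.9, 82.7, 75.3, 63.03 and 33.8% in TAM hashtags. Each group had the lower share in oil, where 8 cells were dividing. The median was 56.5% over the 70 other mitosis genes, 13.9% over the DNA replication genes, 15.5% over 12 regulators of mitotic transcription and 1.05% over the 12492 genes with at least 40 UMIs. The level per 10000 UMIs in dividing cells was 22.6 times that outside for Hmgb2, 56.9 times for Cenpa and 1955 times for Kif23. Hmgb2 was detected in 23.4% of cells outside and Smc2 in 8.27%, against 1.12% for Cdk1 and 0.0803% for Esco2. No cell type lacking these genes was named here, so the background from free RNA was not measured.

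**Figure D3:**
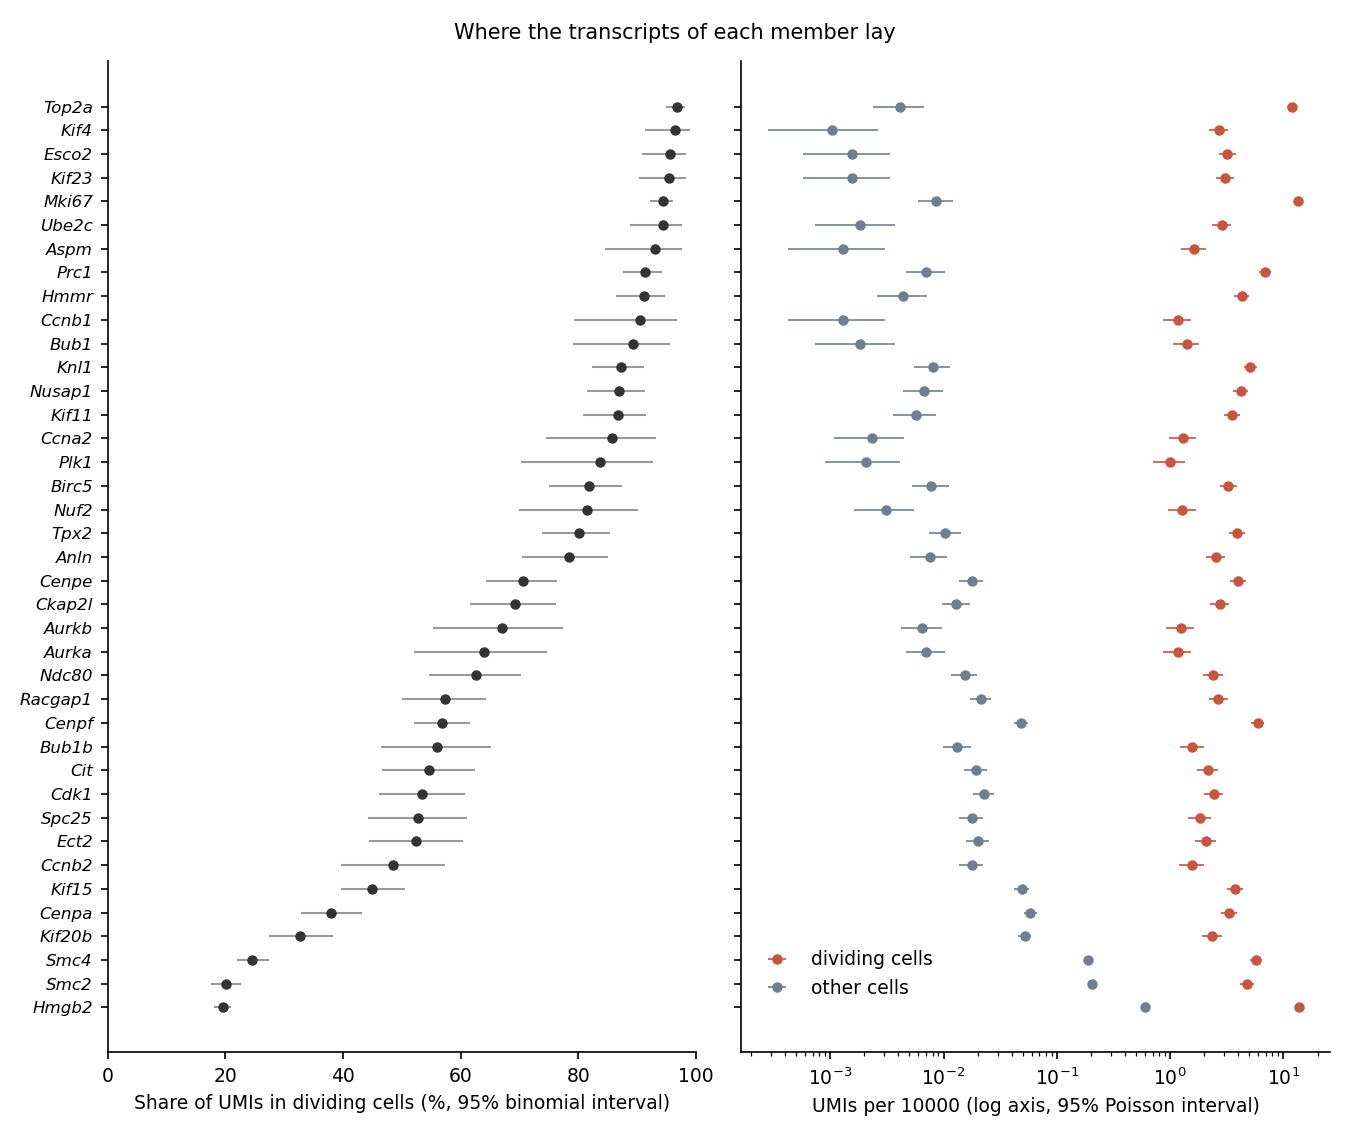
Left, share of each member's UMIs in the 49 dividing cells with 95% exact binomial intervals; right, UMIs per 10000 in dividing cells (red) and in the other 7474 microglia-like cells (grey) on a log axis with 95% Poisson intervals. The order runs from Top2a at 96.8% to Hmgb2 at 19.6%, and members differ more outside than inside dividing cells.

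The change with TAM was tested on UMIs summed over all microglia-like cells of each hashtag (edgeR quasi-likelihood test, Benjamini-Hochberg adjustment over 11168 genes at 0.05). In summed cells, more dividing cells and more RNA per cell cannot be told apart. Of the 39 members, 24 passed the filter on low counts; 17 rose with TAM, 0 fell and 7 were not called. Among all genes tested 1.61% rose and 2.8% fell (4.41% in either direction). The 24 had a median log2 fold of 1.70 against 0 for all genes, and 11 had every TAM hashtag above every oil hashtag, as did 2.06% of all genes. Since a member could pass the filter through TAM hashtags alone, these counts describe the members and are no separate evidence. Without the filter 37 of 39 rose, and 1.73% of 20100 genes did. The 15 members that had not passed, Ccnb1, Ccnb2, Ccna2, Ube2c, Aurka, Aurkb, Plk1, Bub1, Bub1b, Nuf2, Nusap1, Hmmr, Aspm, Anln and Esco2, then had log2 folds of 1.21 to 3.35. All but Aurkb (1.21 ± 0.41, SE, adjusted p = 0.0862) were past the threshold. Removing the filter also lowered p-values at near-equal folds. For Cdk1, at 1.74 in both fits, p went from 2.55e-05 to 1.97e-07 (edgeR). Calls of the 2 fits are therefore not on the same scale.

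Cdk1, the kinase that starts mitosis, was the member of its group that passed the filter. It stood at 2.59, 2.83, 1.58, 2.09 and 1.99 CPM in Oil1 to Oil5 and at 3.53, 5.42, 8.89, 10.3 and 8.20 CPM in TAM1 to TAM5. The groups did not overlap, and the log2 fold was 1.74 ± 0.30 (SE, adjusted p = 0.00497, edgeR). Its partners were near the floor in oil: Ccnb1, the main cyclin of mitotic entry, gave 0, 2, 0, 2 and 1 UMIs in Oil1 to Oil5 and 7, 3, 16, 14 and 8 in TAM1 to TAM5. Ube2c gave 4, 1, 0, 2 and 3 UMIs in oil hashtags and 3, 5, 39, 50 and 18 in TAM hashtags, so TAM1 lay within the oil range.

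Among the kinases and checkpoint genes, Birc5, which encodes the chromosomal passenger protein survivin, was at 1.15, 2.83, 0.451, 1.83 and 0.498 CPM in Oil1 to Oil5. In TAM1 to TAM5 it was at 2.12, 5.42, 7.24, 13.3 and 7.40 CPM, with TAM1 below Oil2. Birc5 rose by a log2 fold of 2.45 ± 0.49 (adjusted p = 0.00997, edgeR). The checkpoint kinase gene Bub1 gave 4, 1, 1, 1 and 1 UMIs in oil and 8, 6, 16, 19 and 8 in TAM hashtags, without overlap. Aurkb, the catalytic partner of survivin, gave 4, 3, 6, 1 and 8 UMIs in oil and 9, 9, 16, 10 and 10 in TAM hashtags, also without overlap but not past the threshold.

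Of the 7 centromere and kinetochore genes 6 were tested and 4 rose. Spc25, of the Ndc80 complex that grips microtubules, was at 1.44, 2.20, 1.13, 2.36 and 1.25 CPM in Oil1 to Oil5 and at 3.53, 4.07, 6.41, 8.04 and 6.08 CPM in TAM1 to TAM5 (log2 fold 1.77 ± 0.30, adjusted p = 0.00485, edgeR). Knl1, the scaffold that recruits checkpoint proteins, was at 3.46, 1.57, 2.25, 0.786 and 2.99 CPM in oil and at 3.76, 4.75, 10.96, 21.4 and 8.46 CPM in TAM hashtags (2.16 ± 0.46, adjusted p = 0.0146). Ndc80 was at 2.30, 2.83, 2.70, 1.05 and 2.99 CPM in oil and at 3.29, 4.41, 6.82, 7.29 and 6.35 CPM in TAM hashtags (1.25 ± 0.29, adjusted p = 0.0210). These 3 genes showed no overlap between the treatments. Cenpe, a kinesin that carries chromosomes to the spindle equator, was at 3.17, 2.52, 0.901, 4.19 and 4.73 CPM in oil and at 5.18, 2.71, 11.4, 14.3 and 8.46 CPM in TAM hashtags (1.48 ± 0.40, adjusted p = 0.0445), with TAM2 inside the oil range. Cenpf and Cenpa were at log2 folds of 1.54 ± 0.43 (adjusted p = 0.0512) and 0.75 ± 0.28 (adjusted p = 0.144).

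Of the 8 spindle genes 5 were tested and 2 rose. Kif15 was at 6.62, 6.92, 3.83, 6.02 and 5.98 CPM in Oil1 to Oil5 and at 7.29, 10.5, 14.1, 15.1 and 11.4 CPM in TAM1 to TAM5, without overlap (log2 fold 1.01 ± 0.21, adjusted p = 0.0128, edgeR). Tpx2, the activator of Aurora A on the spindle, was at 0.288, 2.20, 1.13, 3.14 and 3.49 CPM in oil and at 2.12, 3.73, 8.89, 18.4 and 6.87 CPM in TAM hashtags, with TAM1 inside the oil range (1.96 ± 0.54, adjusted p = 0.0481). The motor genes Kif11 (2.20 ± 0.69, adjusted p = 0.0794) and Kif4 (1.76 ± 0.53, adjusted p = 0.0714) and the spindle protein gene Ckap2l (1.66 ± 0.48, adjusted p = 0.0582) were not called.

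All 6 cytokinesis genes that were tested rose, of 7 in the group, and 5 of them without overlap. Cit, which encodes citron kinase of the midbody, the bridge between daughter cells (chromosome 5, 115845278 to 116008947, plus strand, mm10), was at 2.30, 1.57, 0.451, 1.57 and 1.25 CPM in Oil1 to Oil5 and at 4.47, 4.41, 7.03, 10.8 and 7.40 CPM in TAM1 to TAM5 (log2 fold 2.29 ± 0.35, adjusted p = 0.00382, edgeR). Kif23 was at 2.02, 0.629, 0.225, 0 and 0.997 CPM in oil and at 3.53, 3.73, 7.03, 9.30 and 5.55 CPM in TAM hashtags (2.94 ± 0.48, adjusted p = 0.00422). Racgap1, its partner in the centralspindlin complex, was at 2.30, 3.46, 1.58, 2.36 and 2.24 CPM in oil and at 3.76, 4.07, 8.48, 13.6 and 6.61 CPM in TAM hashtags (1.65 ± 0.36, adjusted p = 0.0147). In all 3 genes TAM3 to TAM5 lay above TAM1 and TAM2. Prc1, which bundles the microtubules of the central spindle, was at 3.17, 3.14, 0.225, 1.31 and 2.74 CPM in oil and at 4.00, 7.12, 15.9, 30.2 and 10.0 CPM in TAM hashtags (2.73 ± 0.54, adjusted p = 0.00993). Ect2, the exchange factor that activates RhoA at the cleavage furrow, rose by 1.41 ± 0.33 (adjusted p = 0.0212) and Kif20b by 0.88 ± 0.23 (adjusted p = 0.0372).

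In the chromosome structure group 3 of 5 tested genes rose. Top2a was at 4.61, 6.60, 0.901, 0.262 and 4.73 CPM in Oil1 to Oil5 and at 6.59, 14.2, 26.9, 41.5 and 21.2 CPM in TAM1 to TAM5, so that TAM1 matched Oil2 (log2 fold 2.76 ± 0.50, adjusted p = 0.00608, edgeR). Mki67 (chromosome 7, 135689784 to 135716361, minus strand, mm10) was at 7.49, 7.23, 0.676, 2.88 and 10.5 CPM in oil and at 7.06, 11.2, 34.7, 45.8 and 19.8 CPM in TAM hashtags, with TAM1 inside the oil range (2.10 ± 0.50, adjusted p = 0.0251). Smc4 was at 21.3, 14.8, 16.5, 18.9 and 18.9 CPM in oil and at 20.5, 26.1, 34.1, 42.7 and 32.3 CPM in TAM hashtags (0.79 ± 0.16, adjusted p = 0.0124), and its condensin partner Smc2 was at 0.46 ± 0.13 (adjusted p = 0.0609). Hmgb2 stood at 73.7 ± 13.3 CPM (SD, n = 5) in oil and 76.0 ± 13.7 CPM in TAM hashtags (0.06 ± 0.12, adjusted p = 0.872).

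**Figure D4:**
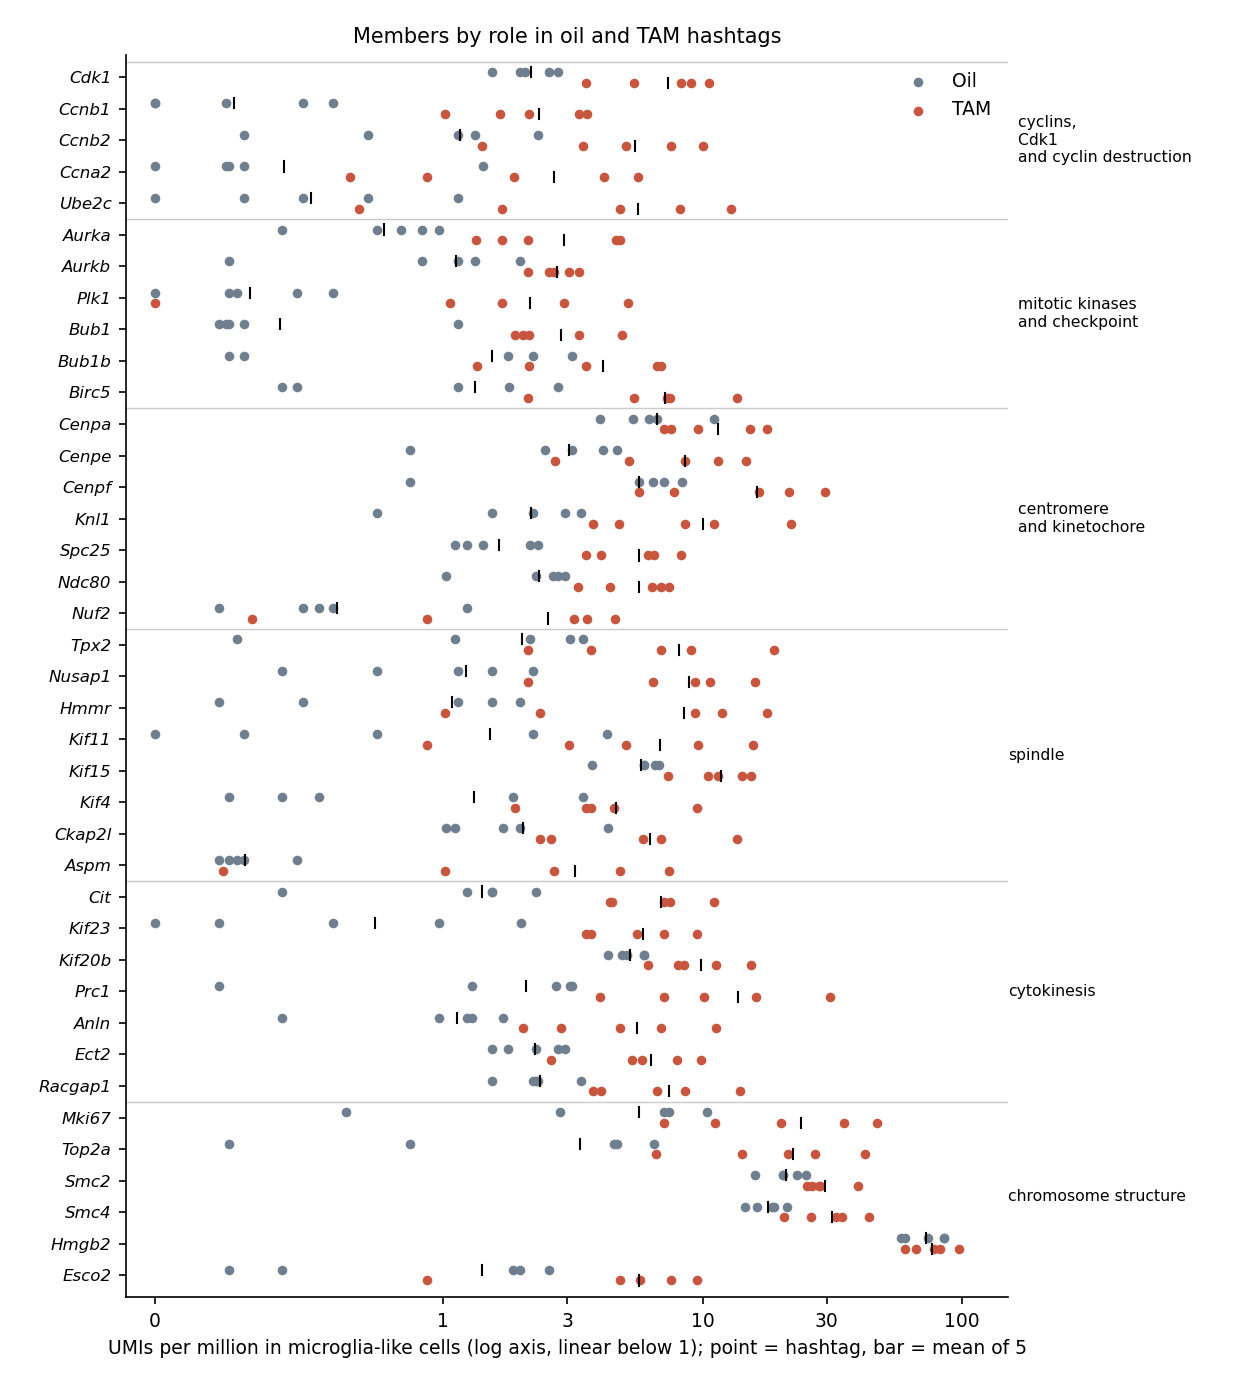
UMIs per 1000000 (without TMM scaling) of the 39 members in each oil (grey) and TAM (red) hashtag by role, on a log axis that is linear below 1; points are hashtags and short bars the mean of 5. TAM hashtags lie to the right for most members, while for Hmgb2 near the bottom the groups overlap.

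The counts depended on single hashtags. Without Oil3, 12 of 29 tested members and 0.657% of all genes rose, and 250 genes were called in either direction. Without TAM3 it was 12 of 24 members and 0.844% (283 genes called), and without TAM4 11 of 24 and 0.693% (247 genes). Without TAM5 it was 14 of 25 members and 0.737% (257 genes), against 493 genes called with all hashtags. Without TAM3 and TAM4 together 1 member, Cit, and 0.15% of all genes rose, with 47 genes called. With the immediate early level of each hashtag as a covariate 0 members passed (4 of 24 at an unadjusted p under 0.05, 81 genes called in all and 0.537% higher), and the median log2 fold of the members was 0.66; with the hashtag number from 1 to 10 as a covariate 0 passed (2 at an unadjusted p under 0.05, 36 genes called in all and 0.233% higher), with a median of 0.58. Counts over all genes at an unadjusted p under 0.05 were not made for these fits. Treatment, the immediate early level and the hashtag number moved together, and their part in the result was not tested. Scaling by library size alone gave 20 members and 3.09% of all genes that rose, and 345 of 592 genes called were higher, against 180 of 493 with TMM; it moved the median log2 fold of all genes to 0.04. DESeq2 also called 17 members as higher (1.62% of all genes), of which 15 were called by edgeR; Mki67 (adjusted p = 0.0773) and Tpx2 (adjusted p = 0.0908) were not among them.

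The rise was described in each sex from a fit with treatment, sex and their product. In female hashtags Top2a was at a log2 fold of 3.91 ± 0.42 (adjusted p = 1.04e-05), from 1.97 to 29.8 CPM, and in male hashtags at 0.83 ± 0.53 (adjusted p = 0.616), from 5.61 to 10.4 CPM. Cit was at 2.94 ± 0.37 (adjusted p = 4.95e-05) in female and 1.17 ± 0.48 (adjusted p = 0.327) in male hashtags. The difference between the sexes passed the threshold in 0 of 24 members and in 0.0179% of all genes (edgeR). Of the 24, 15 were at an unadjusted p under 0.05, and the count over all genes at that level was not made. For Top2a the female minus male difference was 3.08 ± 0.76 (adjusted p = 0.461). The lowest adjusted p of the 24 was that of Hmgb2, at a difference of 0.83 ± 0.16 (adjusted p = 0.0807, edgeR). Its fold in this fit was 0.37 ± 0.10 in female (adjusted p = 0.0256) and -0.46 ± 0.12 in male hashtags (adjusted p = 0.0804, edgeR). With 2 male hashtags a treatment, male and female effects were not shown to differ. In female hashtags alone 29 of 33 tested members rose, against 2.28% of all genes, and in male hashtags alone 0 of 20 rose (edgeR, 5 at an unadjusted p under 0.05), against 0.0723%. The count over all genes at that unadjusted level was not made here either. The filter was set anew for each set of hashtags. A member could pass it through TAM hashtags alone, so the 29 of 33 describe the members and are no separate evidence. In male hashtags alone 1 member, Hmgb2, passed as lower (-0.46 ± 0.10, adjusted p = 0.0466, edgeR), as did 1.05% of all genes (116 of the 124 called). In the fit with both sexes the male fold of Hmgb2 did not pass the threshold (adjusted p = 0.0804, edgeR). With sex as a covariate in a fit of all 10 hashtags 23 of 24 members rose, against 3.04% of all genes. In the fit with both sexes 1.95% of all genes rose in female and 0.125% in male hashtags.

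When the 49 dividing cells were left out, 7 members passed the filter in the remaining cells, 3 of which (Kif15, Kif20b and Smc4) had risen in all cells. Outside dividing cells 0 of the 7 rose (1.25% of 11080 genes rose and 3.83% were called in either direction, edgeR). At an unadjusted p under 0.05 were 2 of the 7 and 2026 of the 11080 genes. Kif15 was at 0.33 ± 0.20 (adjusted p = 0.426), Kif20b at 0.37 ± 0.24 (adjusted p = 0.442), Smc4 at 0.29 ± 0.11 (adjusted p = 0.163), Smc2 at 0.08 ± 0.11 (adjusted p = 0.785), Cenpf at 0.76 ± 0.36 (adjusted p = 0.278) and Cenpa at -0.17 ± 0.26 (adjusted p = 0.795). The other 32 members had too few UMIs left for the filter. A fit of all genes without the filter was added after the data had been seen. Of 39 members it gave 1 higher, Cit, and 1 lower, Hmgb2, with 26 positive and 13 negative folds. In that fit 1.23% of 20050 genes rose. The positive folds include those of Mki67 and Top2a, which set the rule. Cells with a summed count of at least 3 UMIs of these genes had been left out, so their folds here are a description only.

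Cit outside dividing cells gave 4, 3, 2, 4 and 3 UMIs in Oil1 to Oil5 and 9, 0, 15, 18 and 16 in TAM1 to TAM5. TAM2 lay below every oil hashtag and the other 4 TAM hashtags above. The log2 fold without the filter was 1.76 ± 0.47 (adjusted p = 0.0201, edgeR). Removing the filter lowered p-values here too: for Hmgb2, at a near-equal fold, p went from 0.000742 to 9.07e-06 (edgeR). A UMI of Cit was found in 0.430% of oil and 1.41% of TAM cells outside the rule. In female hashtags alone Cit (2.40 ± 0.45) and Cenpf (1.52 ± 0.39) were called as higher, and 1.51% of all genes were. Cit passed the filter there through its TAM hashtags, and it was chosen after its values were seen, so this call is a description.

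Hmgb2 (chromosome 8, 57511907 to 57515999, plus strand, mm10) went the other way outside dividing cells. It stood at 82.1, 79.9, 73.8, 57.6 and 56.3 CPM in Oil1 to Oil5 and at 54.7, 47.4, 56.4, 50.8 and 50.7 CPM in TAM1 to TAM5, where TAM3 just reached Oil5. The log2 fold of Hmgb2 was -0.42 ± 0.10 and passed the threshold as lower (adjusted p = 0.0301, edgeR); of all genes 2.58% fell. The call was lost when Oil1, Oil2, Oil3, TAM2, TAM3, TAM4 or TAM5 was left out, with adjusted p-values of 0.0070 to 0.0894 over the 10 omissions. In female hashtags alone the fold was -0.25 ± 0.10 (adjusted p = 0.229), and -0.050 ± 0.13 (adjusted p = 0.9501) in the fit that held the immediate early level, neither past the threshold. Inside dividing cells Hmgb2 was at 9.79 UMIs per 10000 (95% Poisson interval 7.63 to 12.4) in oil and 14.5 (13.3 to 15.9) in TAM cells. These intervals pool the cells of all hashtags and cover counting error only, and no test was made. By hashtag it was at 7.96 in Oil5 and at 16.0, 13.4, 14.8 and 15.6 in TAM2 to TAM5. The single Oil1 dividing cell gave 15 Hmgb2 UMIs among 8280, and the 2 dividing cells of TAM1 gave 24 among 20282. Dividing cells held 5.07% of its UMIs in oil and 32.7% in TAM hashtags.

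**Figure D5:**
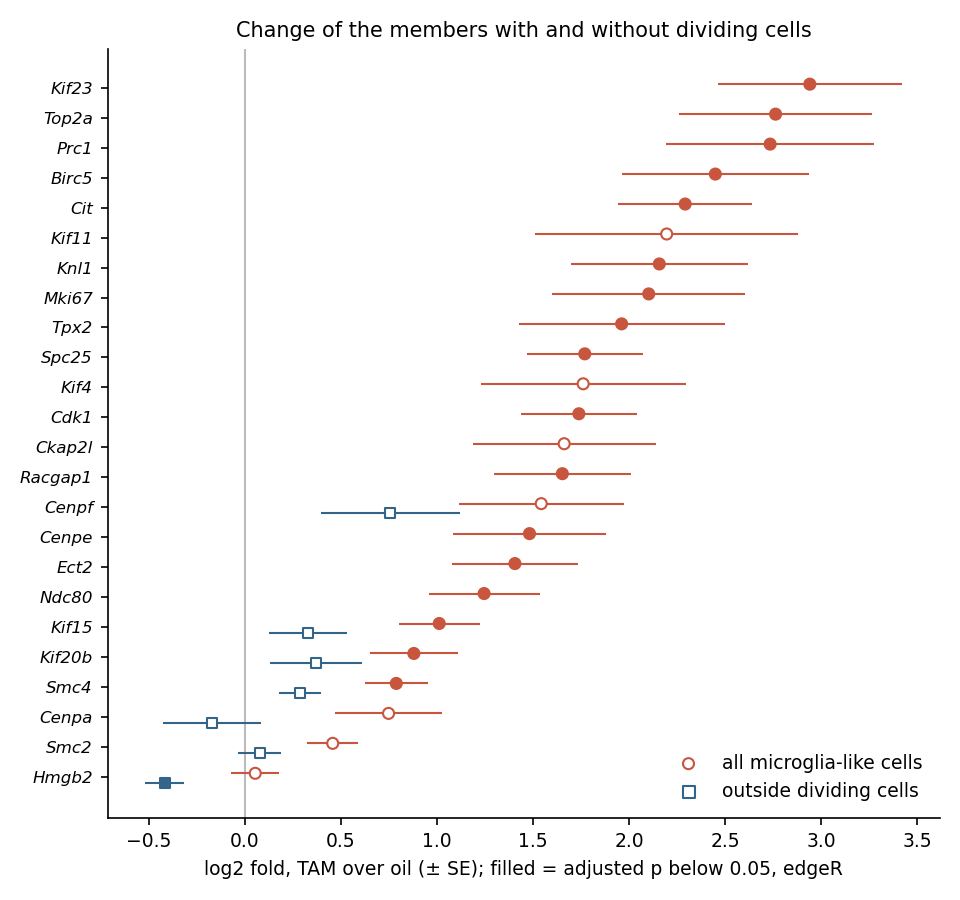
Log2 fold of TAM over oil with its standard error for 24 members in all microglia-like cells (red circles) and for 7 of them outside dividing cells (blue squares); filled marks passed an adjusted p of 0.05. Circles run from 0.06 (Hmgb2) to 2.94 (Kif23), and 1 square, Hmgb2 at -0.42, passed.

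Other genes of the pathway were described from 3 lists. Of the 70 other mitosis and cytokinesis genes 32 were tested, 6 rose and 0 fell, with a median log2 fold of 0.38. The F-box gene Ccnf (1.69 ± 0.34, adjusted p = 0.0111), the chromatin phosphatase regulator Cdca2 (1.85 ± 0.46, adjusted p = 0.0297) and the condensin II subunit Ncapd3 (0.34 ± 0.07, adjusted p = 0.0159) were among them (edgeR). Of the 12 regulators of mitotic transcription 8 were tested and 1 rose, with a median of 0.24. It was E2f1, an activator of genes for the entry into S phase, from 1.29 ± 0.81 to 4.75 ± 1.02 CPM (SD, n = 5; 1.89 ± 0.38, adjusted p = 0.0111). The DREAM subunit Lin52 (0.23 ± 0.08, adjusted p = 0.105), the pocket protein gene Rbl1 (0.26 ± 0.10, adjusted p = 0.166) and the E2F partner Tfdp1 (0.32 ± 0.14, adjusted p = 0.217) were not called.

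Of the 40 DNA replication genes 30 were tested, 3 rose and 1 fell, with a median of 0.29. The checkpoint adaptor Clspn (1.70 ± 0.44, adjusted p = 0.0362), thymidine kinase Tk1 (1.11 ± 0.29, adjusted p = 0.0374) and the helicase subunit Mcm5 (1.09 ± 0.30, adjusted p = 0.0479) rose. Pcna, the sliding clamp of DNA polymerase, fell by 0.54 ± 0.12 (adjusted p = 0.0182) and, outside dividing cells, by 0.68 ± 0.13 (adjusted p = 0.00722). Like Hmgb2, Pcna had most of its UMIs outside dividing cells, which held 6.38% of them. Outside dividing cells 0 genes of these 3 lists rose (edgeR). At an unadjusted p under 0.05 in either direction were 4 of 22 other mitosis genes, 1 of 7 regulators and 3 of 28 replication genes. Of all 11080 genes tested there, 2026 were at that level.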

How the data were processed

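Sorted mouse microglia were measured as 1 droplet pool with 2 libraries. The deposited matrix holds raw counts of UMIs for each feature in each barcode. It was written by Cell Ranger 7.0.0, per the file headers, on the mm10 build, per the submitters' processing notes. How reads common to several gene copies were counted is not given in the sources used here, so genes with close copies, such as Hmgb2, are uncertain. Hashtags were assigned with HTODemux (Seurat 5.3.0, positive quantile 0.99), which gave 8055 singlets among 9975 barcodes, and cells needed 500 genes, 1000 UMIs and at most 10% mitochondrial UMIs. Of the 7903 singlets kept, Leiden clustering (scanpy 1.11.5, 2000 variable genes, 30 components, 15 neighbours, resolution 0.5) gave 7 clusters, 5 of them microglia-like. A cluster was named where at least 3 markers were in 25% of its cells and the median marker in 50%. A further rule left unnamed a cluster of low median depth without a marker among its leading genes. It applied to 317 cells with a median of 1507 UMIs, in which the median microglial marker was in 63.1% of cells. A cluster of 63 cells led by H2-Eb1 also stayed unnamed. No doublet caller was run.

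Raw counts were summed per hashtag and tested with edgeR 4.0.16 (TMM, filterByExpr, quasi-likelihood F test, Benjamini-Hochberg at 0.05). The fits were tested on simulated counts with the same spread for every gene. That says little about genes that vary among hashtags as much as many members do. CPM in tested genes is after TMM scaling. The standard error of a log2 fold is the fold divided by the square root of F. Levels inside dividing cells are UMIs per 10000 with exact Poisson or binomial intervals at 95%, and a count of 0 allows 3 counts. Alternatives covered scaling, filter, DESeq2 1.42.0, omitted hashtags, sex, immediate early level, hashtag number, cell sets and definitions of dividing cells. The members and gene lists were chosen with earlier results of these data known. Values in every hashtag are given for Mki67, Top2a, Hmgb2 and up to 4 members per role past the threshold, by smallest p; of the other lists up to 4 genes are named, and 1 such gene is not reported here. Cit outside dividing cells, the UMIs of Ccnb1, Ube2c, Bub1 and Aurkb, and the members named for their share or level in dividing cells were chosen after their values were seen. Gene positions come from GENCODE vM21 and promoters from RefSeq (GRCm38.p6).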

Additional observations from a re-analysis of the deposited data

Results flagged for a closer look

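Among 80 groups of 5 hashtags (39 members and the dividing share, by treatment), 5 held a value far from the other 4, and chance gives about 1 in 20. In oil hashtags Ccna2 was at 1.42 CPM in Oil1 against 0 to 0.309 in the others, Bub1 at 1.14 in Oil1 against 0.221 to 0.309, Ckap2l at 4.32 in Oil2 against 1.03 to 1.97, and Kif15 at 3.76 in Oil3 against 5.92 to 6.79. In TAM hashtags Smc2 was at 39.5 CPM in TAM4 against 25.3 to 28.4. Oil1 held 1 dividing cell, and TAM4 held 13. These CPM are per total UMIs of the hashtag.

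Barcodes with several hashtags, which no comparison used, held 11 dividing barcodes among 1716 (0.641%, 95% exact binomial interval 0.320 to 1.14), beside 49 among 7903 filtered singlets (0.620%). The 141 filtered barcodes without a hashtag held 0, which allows up to 2.13%, and the 380 singlets of the unnamed clusters held 0, which allows up to 0.789%.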

How the results depend on the processing

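With the filter on low counts removed, 823 genes were called in all microglia-like cells and 37 members rose. Outside dividing cells it was 701 genes and 2 members (Cit higher, Hmgb2 lower). In all cells 14 of the 15 newly tested members and 6 of the 7 tested before gained the call. P-values also fell at near-equal folds, so these calls are not on the scale of the filtered fit. Sex as a covariate gave 856 genes and 23 members that rose, and 769 genes outside dividing cells. Female hashtags alone gave 29 of 33 tested members that rose, and 2 (Cit and Cenpf) outside dividing cells. Male hashtags alone gave 124 genes, 0 of 20 tested members that rose (5 at an unadjusted p under 0.05) and 1, Hmgb2, that fell. The immediate early level as a covariate gave 81 genes and 0 members (4 at an unadjusted p under 0.05), and outside dividing cells 91 genes and 0 members; the hashtag number gave 36 genes and 0 members (2 at an unadjusted p under 0.05). Chosen after seeing the data, leaving out Oil1, Oil2 and Oil3 together gave 7 genes and 0 members (33 of 39 at an unadjusted p under 0.05, median log2 fold 1.83), and leaving out TAM3 and TAM4 together 47 genes and 1 member. Beyond fewer samples, the cause was not tested. All 39 members passed the filter without Oil1, Oil2 and Oil3, and they could do so through TAM hashtags alone. Counts over all genes at an unadjusted p under 0.05 were not made for the fits of this paragraph.

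Leaving out 1 hashtag gave 247 to 643 genes and 11 to 25 members that rose, and outside dividing cells 189 to 539 genes and 0 to 1 members. The filter was set anew each time, so in all cells 24 to 30 members were tested and the counts are not like for like. They ran from 11 of 24 without TAM4 to 25 of 27 without TAM1. Without Oil3 it was 12 of 29, and 10 of the 17 calls of the main fit remained. Calls of Top2a, Birc5, Cdk1, Prc1, Knl1, Kif23, Kif15, Cit, Spc25 and Smc4 held in every omission of 1 hashtag. Those of Mki67 (without Oil3, Oil4, TAM3 or TAM4), Cenpe and Tpx2 (Oil1 to Oil4 or TAM3 to TAM5), Kif20b (Oil1 to Oil4, TAM3 or TAM4), Ndc80 (Oil3 or TAM3 to TAM5), Ect2 (Oil3, Oil4 or TAM4) and Racgap1 (Oil3) were lost. Hmgb2 ranged from -0.039 to 0.13 and, outside dividing cells, Cenpa from -0.30 to 0.13.

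Log2 folds changed sign in male hashtags alone for Cenpf (-0.24), Kif11 (-0.38) and Hmgb2 (-0.46), and without TAM3 and TAM4 for Hmgb2 (-0.12). With the immediate early level they did so for Cenpa (-0.15), Tpx2 (-0.51) and Kif4 (-0.088), and with the hashtag number for Cenpa (-0.21), Tpx2 (-0.61) and Kif4 (-0.25). The mean share of dividing cells was 0.860 percentage points higher in TAM than in oil hashtags (larger group SD 0.561). That difference was 1.11 with a cut of 2 UMIs, 0.677 with a cut of 5, 0.946 with the other hashtag assignment and 0.808 with all filtered singlets. With thinning it was 0.556, and TAM1 (0.126%) then lay below every oil hashtag except Oil3 (0%). The pooled share of UMIs in dividing cells was 46.4%, and 48.4 and 44.4% with cuts of 2 and 5. A cut of 1 UMI gave 15 of 3732 oil cells (0.402%) and 71 of 3791 TAM cells (1.87%).

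The replicate block, the number 1 to 5 in the hashtag name, gave 863 genes and 23 members that rose, against 493 and 17 without it. Same-numbered hashtags correlated at 0.335, 0.169, 0.0549, 0.126 and 0.117 in their deviations from the group means. All 5 were positive, and the main fit did not take the numbers as pairs. In both treatments numbers 1 and 2 were male and 3 to 5 female, so the block also carries sex. The 49 dividing cells, 8 of them oil, limit the levels inside them.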
